A study of Mus musculus with 4 samples.

Results

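The genes described here are Tnf, Lta and Ltb, which encode the ligands tumor necrosis factor, lymphotoxin alpha and lymphotoxin beta, and Tnfrsf1a, Tnfrsf1b and Ltbr, which encode their receptors TNFR1, TNFR2 and the lymphotoxin beta receptor. They were chosen by name, and all 6 were among the 19059 genes measured. The messages were counted in single sorted leukocytes (CD45-positive) from tumors grown from MC38, a mouse colon carcinoma line, with 1 library for each of 4 groups. The hosts were C57BL/6 mice carrying human CTLA-4 in place of the mouse gene, which is the target of ipilimumab. Tumors of 11 mice were pooled for each library, after 3 treatments that began at about 100 mm3, and were taken on day 8. The isotype group received human IgG1 without a target in the mouse at 10 mg/kg. The combination group received the human IgG1 antibody ipilimumab against human CTLA-4 at 10 mg/kg with the antibody AT130-2 against mouse FcgRII at 20 mg/kg, the latter as a mouse IgG1 whose N297A change impairs binding to Fc receptors. Each of the 2 other groups received 1 of these antibodies, but the titles and treatment fields of their records name opposite antibodies. They are called here by their titles, as the CTLA-4-titled and the FcgRII-titled library, and nothing is attributed to either antibody alone. The article gives other numbers for tumors per group, day, starting size and doses than the records of the series do.

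TNF and the lymphotoxins are trimeric ligands encoded side by side in the major histocompatibility complex. TNF is made as a membrane protein and released by the protease ADAM17. The soluble lymphotoxin alpha trimer uses the TNF receptors, whereas lymphotoxin alpha and beta together form a membrane trimer that binds the lymphotoxin beta receptor. TNFR1 is widely expressed and carries a death domain through which it can drive NF-kB signaling or cell death. TNFR2 lacks that domain and is known for its high expression on regulatory T cells and myeloid cells, and the lymphotoxin beta receptor is known from stromal and myeloid cells and from the formation of lymphoid organs. In tumors, macrophages, neutrophils and activated T cells are known sources of TNF, and lymphocytes are the known source of the lymphotoxins.

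The 3 ligand genes lie in one stretch of mouse chromosome 17 (GRCm38, the same coordinates as the mm10 build named in the records), as protein-coding genes of the GENCODE vM21 annotation. Ltb (ENSMUSG00000024399) occupies chr17:35194439-35196320 on the plus strand. Tnf (ENSMUSG00000024401) follows 3060 bases further at chr17:35199381-35202007 on the minus strand, and Lta (ENSMUSG00000024402) lies 1157 bases beyond it at chr17:35203165-35205351, also on the minus strand. Of the receptors, Ltbr (ENSMUSG00000030339, chr6:125306571-125313885, minus strand) and Tnfrsf1a (ENSMUSG00000030341, chr6:125349362-125362484, plus strand) are 35476 bases apart on chromosome 6. Tnfrsf1b (ENSMUSG00000028599) is at chr4:145213463-145246870 on the minus strand.

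The 250 bases before the RefSeq start of each ligand gene are printed because these neighbors had different cell sources in the tumors. All 6 members matched RefSeq (GRCm38.p6) by symbol, 1 promoter each, and the 3 below are written 5′ to 3′ on the strand of the gene. The RefSeq start is that of the annotation above for Tnf and Lta. For Ltb it lies 68 bases inside the GENCODE gene, so the last 68 bases of that window belong to the gene. Capitals mark TATAAA, the TATA box letters, and an NF-kB type site (GGG, any 2 bases, then TTTCC), both searched on both strands with no overlap between them.
Tnf promoter, chr17:35202008-35202257, minus strand: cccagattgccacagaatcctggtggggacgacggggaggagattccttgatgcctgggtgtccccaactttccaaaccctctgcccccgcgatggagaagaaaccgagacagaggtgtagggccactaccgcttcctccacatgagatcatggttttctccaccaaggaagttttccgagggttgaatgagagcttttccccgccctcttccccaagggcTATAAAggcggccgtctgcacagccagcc
Lta promoter, chr17:35205352-35205601, minus strand: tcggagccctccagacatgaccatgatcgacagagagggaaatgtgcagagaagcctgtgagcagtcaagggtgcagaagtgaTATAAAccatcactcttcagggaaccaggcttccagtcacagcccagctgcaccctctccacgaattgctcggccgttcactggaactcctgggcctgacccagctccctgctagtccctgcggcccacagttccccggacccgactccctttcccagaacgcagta
Ltb promoter, chr17:35194257-35194506, plus strand: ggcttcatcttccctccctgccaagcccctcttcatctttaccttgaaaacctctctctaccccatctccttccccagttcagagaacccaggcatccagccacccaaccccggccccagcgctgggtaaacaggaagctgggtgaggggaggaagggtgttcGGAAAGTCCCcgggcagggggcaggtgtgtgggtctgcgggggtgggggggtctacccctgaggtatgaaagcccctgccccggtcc

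TATAAA was found in the Tnf window, starting 29 bases before the RefSeq start, and in the Lta window, starting 167 bases before it. The NF-kB type site was found in the Ltb window on the opposite strand, 87 bases before the RefSeq start. Of 32851 promoter windows of the same length, 12.4% held TATAAA and 1.41% held the NF-kB type site. These matches are descriptions of the letters and say nothing of factor binding in these cells.

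After filters, 26786 of 28290 cells were kept, 7741 in the isotype, 6046 in the CTLA-4-titled, 5779 in the FcgRII-titled and 7220 in the combination library, and values below are given in that order unless stated otherwise. The libraries held 129151823 to 196362818 UMIs. Levels are UMIs of a gene per 1000000 UMIs of a cell class (CPM), with the class formed by clustering from which the 6 members and their pathway genes were left out. The probe-based assay counts different probes for each gene, so levels are compared for 1 gene between classes or libraries and not between genes. Because each group was 1 library, no test between groups was possible, and group and library cannot be told apart. All intervals are exact 95% intervals that cover counting error only, and UMIs of 1 cell are not independent, so they understate the error. No full barcode was shared between libraries, and 712 to 1148 droplet barcodes were shared by a pair of libraries of this multiplexed run.

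The classes carried their own markers. The T cell list summed to 5431 to 10407 CPM in T cells and 40.7 to 204 CPM in monocytes and macrophages, and the neutrophil list to 28908 to 45280.5 CPM in neutrophils. T cells numbered 500, 686, 277 and 517, NK cells and ILC1 357, 424, 238 and 446, monocytes and macrophages 5496, 4275, 4581 and 4815, dendritic cells 243, 150, 98 and 126, and neutrophils 113, 92, 50 and 463. Macrophage messages were present in the lymphoid classes, where all 14 listed macrophage genes were over 10 CPM. Their sum was 18296, 7359, 19161 and 16323 CPM in T cells and 8163, 2169.9, 8315 and 5287 CPM in NK cells and ILC1. Lymphoid values are therefore also given for cells with under 1% of their UMIs on that list, of which there were 386, 643, 197 and 396 among T cells and 310, 418, 203 and 409 among NK cells and ILC1. A cluster led by Foxp3 and Tnfrsf4, of 805, 259, 365 and 671 cells with T cell and macrophage markers in the same barcodes was kept apart as mixed. With finer clusters, at resolution 1.2, 346 mixed barcodes formed a cluster led by the NK cell genes Gzma and Ncr1. Only live CD45-positive cells had been sorted, after a gradient that enriches lymphocytes, so numbers of cells describe the sorted fraction.

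Tnf was at its highest level in neutrophils, whose lowest library was above the highest library of every other class. Neutrophil Tnf was 520.4, 837, 375 and 989 CPM, with the combination library highest and the FcgRII-titled library lowest. These levels rest on 251, 306, 107 and 2019 UMIs, since neutrophils were few in 3 of the libraries. Classical monocytes had 139 to 167 CPM, CD8 T cells 119 to 271 CPM and macrophages 96.4 to 146 CPM, and their ranges overlapped. NK cells and ILC1 (78.1 to 118 CPM), nonclassical monocytes (36.0 to 108 CPM) and dendritic cells (50.05 to 89.7 CPM) also overlapped with one another. The fibroblast or tumor cell cluster, a rough measure of free RNA, had 0.819 to 5.33 CPM. It held 9, 17, 7 and 36 Tnf UMIs in 72, 96, 100 and 78 cells. These cells were far deeper, so their CPM can understate free RNA in shallower classes such as NK cells and ILC1. That class held 237, 257, 172 and 500 Tnf UMIs in 357, 424, 238 and 446 cells. The part of free RNA in these levels was not tested.

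**Figure D1:**
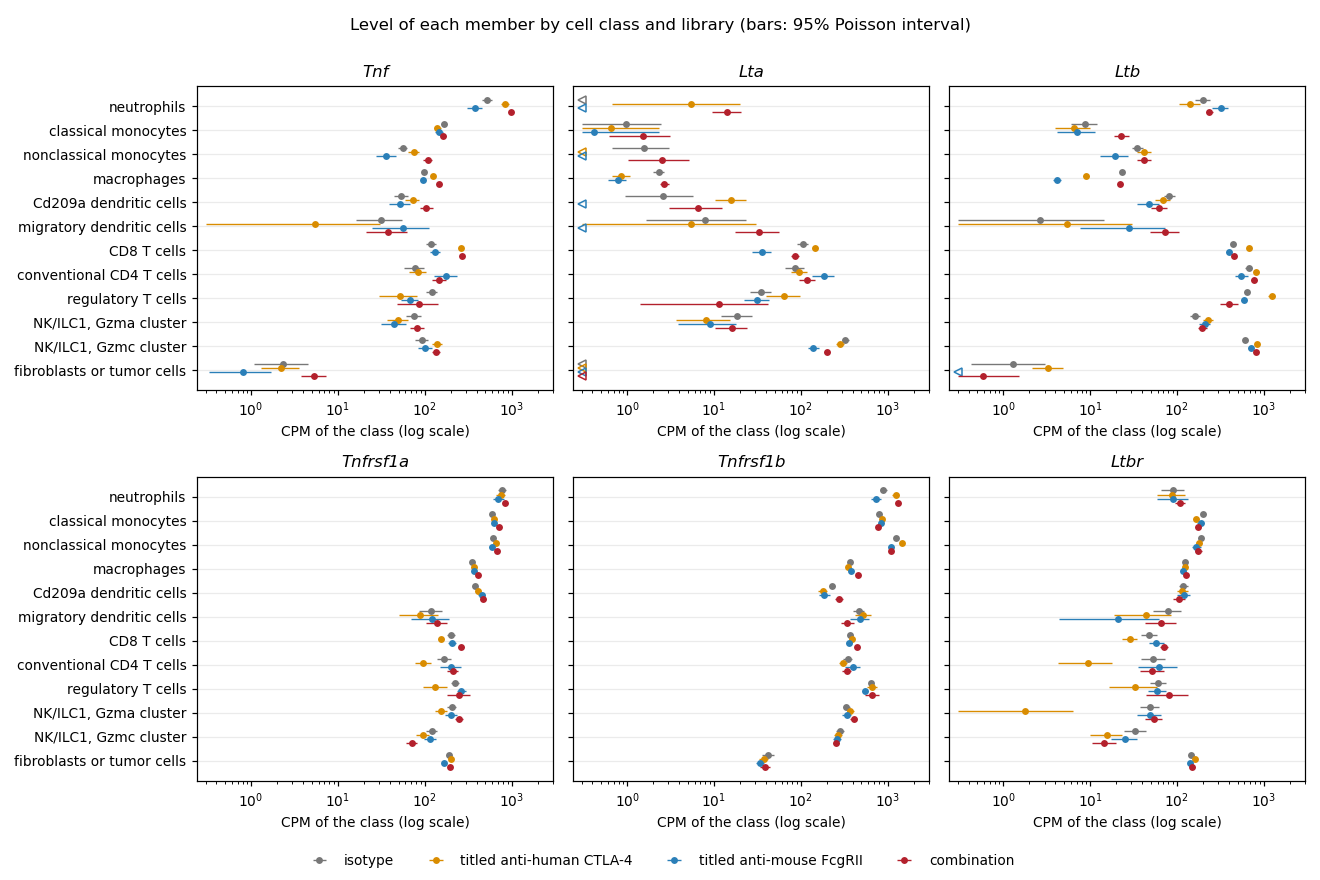
Level of the 6 members in 12 cell classes, as UMIs per 1000000 UMIs of the class on a log scale, with 1 point for each library and 95% Poisson intervals as bars. Open triangles at the left edge mark levels under 0.3 CPM. Tnf was highest in neutrophils (375 to 989 CPM). Lta was 139 to 326 CPM in the NK and ILC1 cluster led by Gzmc and 86.0 to 183 CPM in conventional CD4 T cells. It was 8.02 to 18.6 CPM in the NK and ILC1 cluster led by Gzma. Tnfrsf1b was 1082 to 1448 CPM in nonclassical monocytes and 733 to 1308 CPM in neutrophils. Between these classes, neutrophils were higher only in the combination library.

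Monocytes and macrophages had lower levels but were most of the cells, and held most of the Tnf messages. They held 67.2, 77.0, 78.1 and 62.0% of all Tnf UMIs. Neutrophils held 1.66, 2.16, 0.883 and 7.17%, while they had 0.312, 0.320, 0.223 and 1.17% of all UMIs and 1.46, 1.52, 0.865 and 6.41% of the cells. The neutrophil share was thus highest in the combination library, where both the number of neutrophils and their Tnf level were highest. T cells held 5.12, 9.14, 3.66 and 6.94% and the mixed cluster 23.0, 8.75, 15.1 and 21.1%.

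**Figure D2:**
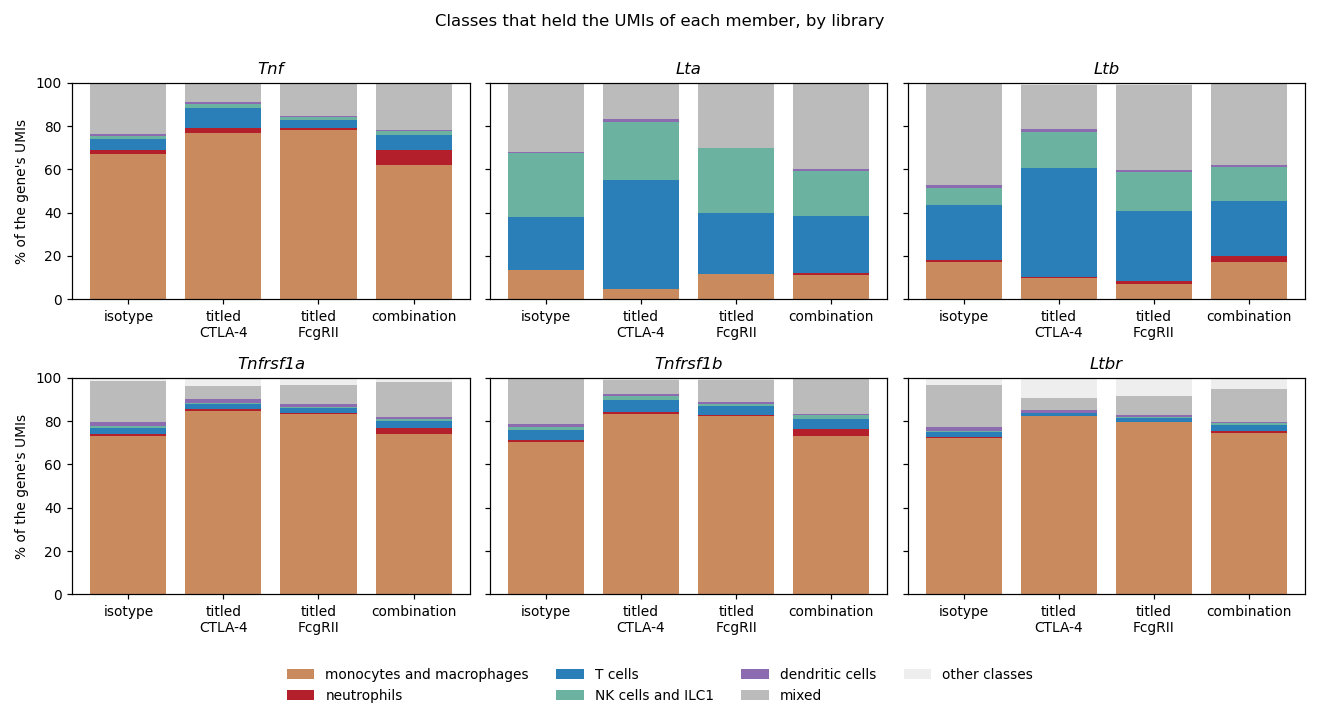
Share of the UMIs of each member held by each class, in percent, as stacked bars for the 4 libraries. Monocytes and macrophages held 67.2, 77.0, 78.1 and 62.0% of Tnf UMIs, whereas T cells, NK cells and ILC1 and the mixed cluster held most UMIs of Lta and Ltb.

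In all 5 main classes the Tnf level was higher in the combination than in the isotype library. The ratio was 2.05 times (95% interval 1.88 to 2.23) in T cells, which had 111, 213, 104 and 229 CPM. It was 1.90 times (95% interval 1.67 to 2.18) in neutrophils, where the median of all genes was at -0.08 on the log2 scale. It was 1.48 times (95% interval 1.45 to 1.52) in monocytes and macrophages, whose levels were 98.2, 124, 96.5 and 145 CPM and whose median gene was at -0.11. NK cells and ILC1, at 84.2, 99.5, 78.1 and 118 CPM, gave 1.40 (1.196 to 1.64), but 1.17 (0.984 to 1.40) without the 1% of cells with most Tnf UMIs. That class held more of the cluster led by Gzmc in the combination (196 of 446 cells) than in isotype (103 of 357), and within clusters the ratio was 1.46 (1.197 to 1.79) in it and 1.10 (0.836 to 1.45) in the cluster led by Gzma. Dendritic cells, at 50.05, 65.6, 52.5 and 89.7 CPM and with the median gene at -0.12, gave 1.79 (1.41 to 2.27), but 1.14 (0.823 to 1.56) without those having 1% or more macrophage marker UMIs. At the finer resolution of 1.2 the neutrophils fell into a cluster led by G0s2 with 78, 76, 34 and 431 cells and one led by Retnlg and Lcn2 with 35, 16, 16 and 32 cells, so the latter was a larger part of the class in isotype than in the combination. Tnf was 786, 961, 476 and 1056 CPM in the first, at 1.34 (1.17 to 1.54) times isotype in the combination, and 77.5, 40.7, 148 and 44.7 CPM on 14, 2, 13 and 6 UMIs in the second, at 0.577 (0.182 to 1.598) times. These cluster values were added after the data were seen. The ratio over all neutrophils was 1.74 (1.499 to 2.04) without cells at 1% or more macrophage marker UMIs. With classes taken from marker UMIs of each cell in place of clusters, the ratio was 3.17 (2.81 to 3.59) in T cells, 4.18 (3.26 to 5.44) in neutrophils and 6.30 (5.00 to 8.00) in dendritic cells.

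The CTLA-4-titled library stood above isotype in T cells at 1.91 (1.74 to 2.09), in neutrophils at 1.61 (1.36 to 1.91), or 1.22 (1.03 to 1.46) in their cluster led by G0s2, and in monocytes and macrophages at 1.27 (1.23 to 1.30). The FcgRII-titled library gave 0.934 (0.829 to 1.05), 0.721 (0.570 to 0.908) and 0.983 (0.956 to 1.01) in the same classes, and its neutrophil ratio went to the other side of 1 with classes from marker UMIs (1.65 (1.14 to 2.38)) and under stricter filters, 1000 detected genes and 5% mitochondrial UMIs (1.07 (0.823 to 1.40)). The combination thus differed from the CTLA-4-titled library by 1.07 (1.00 to 1.15) in T cells, 1.18 (1.05 to 1.34) in neutrophils and 1.17 (1.14 to 1.198) in monocytes and macrophages. Against a fold of 2 with at least 50 UMIs, Tnf was the only member of 6 called higher in T cells of the combination than of isotype, where 1.86% of genes were called higher and 1.49% lower. That call was lost, at 1.997, with 10% of cells left out as doublets and, at 1.91, without the 1% of cells with most Tnf UMIs. No member was called in either direction in the other classes, of 6 tested in NK cells and ILC1 and in monocytes and macrophages and 5 in dendritic cells and neutrophils, where Lta had too few UMIs, with backgrounds of 1.15% higher and 2.46% lower in NK cells and ILC1, 2.86% and 2.7% in monocytes and macrophages, 2.08% and 2.97% in dendritic cells, and 4.49% and 5.2% in neutrophils.

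**Figure D3:**
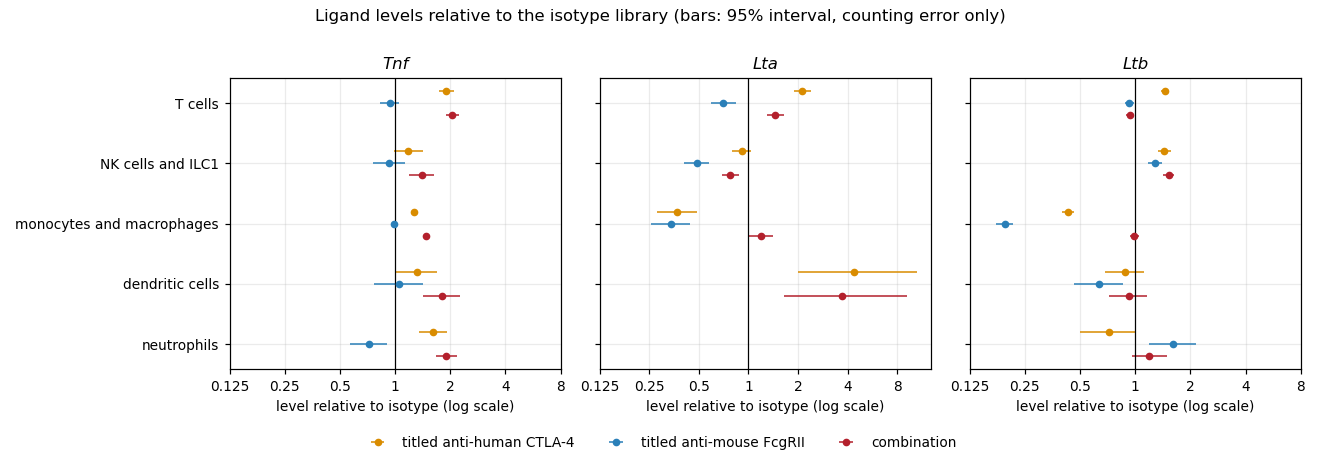
Levels of Tnf, Lta and Ltb relative to the isotype library in 5 classes, on a log scale, with 95% intervals of counting error as bars and the line at 1 marking equal levels. Points with 3 or fewer UMIs on either side are left out. The combination points of Tnf lie right of the line in all 5 classes, between 1.40 and 2.05, while Lta lies at 1.45 in T cells and at 0.778 in NK cells and ILC1.

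T cells were split by any UMI of Cd4, of Cd8a or Cd8b1, and of Foxp3, so the split depends on depth. CD8 T cells had Cd8a or Cd8b1 without Cd4 or Foxp3. Conventional CD4 T cells had only Cd4, and regulatory T cells Cd4 and Foxp3 without Cd8a or Cd8b1. All other T cells, at 1.67, 1.75, 1.19 and 1.88% of cells, held 304, 184, 79 and 614 Tnf UMIs. CD8 T cells had 119, 262, 133 and 271 CPM, with both the CTLA-4-titled and the combination library above the 2 others. In them the combination was at 2.29 (1.98 to 2.65) times isotype. Conventional CD4 T cells had 76.9, 83.8, 176 and 145 CPM on 59, 80, 45 and 117 UMIs, with a ratio of 1.89 (1.37 to 2.63). Regulatory T cells had 120.0, 51.4, 67.0 and 86.7 CPM, with isotype highest, but only 10 such cells were found in the combination library. A larger part of them had 1% or more macrophage marker UMIs in isotype than in the CTLA-4-titled library, as given below with Ltb. The part of macrophage messages in these Tnf levels was not tested. T cells with under 1% macrophage marker UMIs had 111, 253, 119.5 and 271 CPM, so the ratio of the combination to isotype was larger in them, at 2.43 (2.09 to 2.83).

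Among monocytes and macrophages, 12 of 13 clusters had more Tnf in the combination than in isotype, 11 of them beyond counting error. Classical monocytes were the exception, at 167, 139, 145 and 165 CPM and a ratio of 0.988 (0.889 to 1.10). Nonclassical monocytes had 55.9, 74.5, 36.0 and 108 CPM and a ratio of 1.93 (1.64 to 2.28). In macrophages, the widest ratios were in the cluster led by Hspa1a and Adm (64.7, 107, 69.5 and 164 CPM, with 24 cells in the combination) and in that led by Ctsk and Hspa1a (96.7, 158, 91.3 and 190.2 CPM). The cluster led by Retnla and Saa3 had the lowest isotype level (23.7, 15.0, 87.6 and 29.2 CPM), and there the FcgRII-titled library was highest. The median ratio over the 13 clusters was 1.45 for the combination, 1.27 for the CTLA-4-titled and 0.975 for the FcgRII-titled library.

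**Figure D4:**
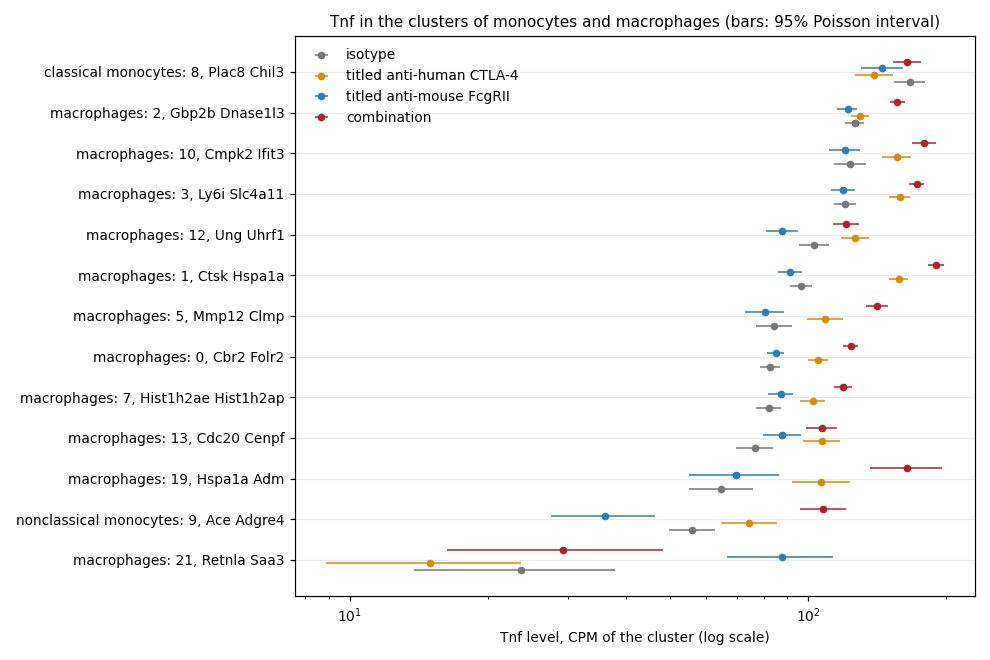
Tnf level in the 13 clusters of monocytes and macrophages, each named by its number and 2 leading genes and ordered by the isotype level, on a log scale, with 1 point for each library and 95% Poisson intervals as bars. The combination stood above isotype in 12 of 13 clusters, and classical monocytes had 167 CPM in isotype and 165 CPM in the combination.

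Tnf was also higher in monocytes and macrophages with at least 3 UMIs of Nos2, the inducible nitric oxide synthase, than in those with none. The levels were 138, 184, 138 and 162 CPM with Nos2 and 91.0, 106, 90.3 and 123 CPM without. The number of cells with at least 3 Nos2 UMIs was 626, 793, 436 and 2432. Cells without Nos2 thus also had more Tnf in the combination than in isotype. The Nos2 cells were deeper, with a median of 18067 against 14128 UMIs in isotype, and the part of depth in this difference was not tested.

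The share of cells with a Tnf UMI was compared with each cell drawn down to 2000 UMIs. In neutrophils it was 33.6% (24.6 to 43.8) in isotype, 45.5% (34.3 to 56.5) in the CTLA-4-titled, 32.9% (20.0 to 49.0) in the FcgRII-titled and 56.7% (51.6 to 61.6) in the combination library. The shares without drawing down were 43.4, 55.4, 48 and 63.9%. T cells had 15.8, 17.6, 15.1 and 22.1% and monocytes and macrophages 14.8, 17.2, 13.3 and 18.6%. NK cells and ILC1 were at 10.6 to 12.5% in all libraries. The fibroblast or tumor cell cluster had 0.267 to 1.31%, with median depths of 51278 to 86232 UMIs before drawing down, against 2981 to 3489 UMIs in neutrophils. Its shares without drawing down were 6.94, 7.29, 6 and 17.9%.

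**Figure D5:**
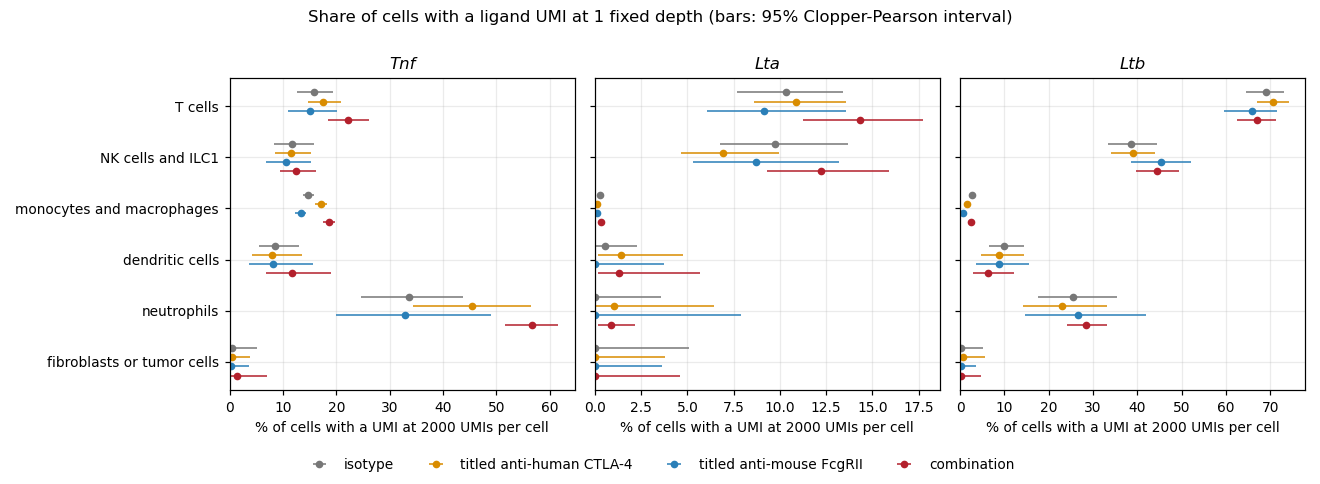
Share of cells with at least 1 UMI of Tnf, Lta or Ltb after each cell was drawn down to 2000 UMIs, in percent, with 95% Clopper-Pearson intervals as bars, for 5 classes and the fibroblast or tumor cell cluster. Tnf shares in neutrophils reached 56.7% in the combination, and Ltb shares in T cells were 65.8 to 70.6%.

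Tnf was unevenly spread over cells. The 10% of cells with most Tnf UMIs held 67.2, 79.1, 64.8 and 71.6% of its UMIs in T cells and 67.3, 65.7, 62.6 and 54.4% in neutrophils. Single cells reached 173 Tnf UMIs among T cells and 245 among monocytes and macrophages. Without the 1% of cells with most Tnf UMIs, the ratio of the combination to isotype was 1.91 (1.74 to 2.10) in T cells and 2.40 (2.06 to 2.81) in neutrophils.

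Lta was largely a message of T cells and of 1 of the clusters of NK cells and ILC1. The cluster led by Gzmc and Gzmd, granzymes of activated cytotoxic cells, had 326, 283, 139 and 202 CPM. The other NK and ILC1 cluster, led by Gzma and Klra8, had 18.6, 8.02, 9.02 and 16.1 CPM. In each library the intervals of the 2 levels did not overlap. T cells had 61.4, 130.1, 43.3 and 89.2 CPM. Of all Lta UMIs, T cells held 24.8, 50.3, 28.6 and 26.6%, NK cells and ILC1 29.3, 26.8, 29.7 and 20.6%, and the mixed cluster 31.7, 16.1, 29.97 and 40.0%.

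In T cells, Lta in the combination was 1.45 times (95% interval 1.29 to 1.64) isotype. The CTLA-4-titled library was at 2.12 (1.88 to 2.39) times and the FcgRII-titled library at 0.705 (0.590 to 0.840) times. One cell held 341 of the 792 Lta UMIs of the CTLA-4-titled library. Without the cell with most Lta UMIs in each library, the T cell levels were 55.1, 74.3, 38.4 and 85.7 CPM and the combination was highest, at 1.56 (1.37 to 1.77) times isotype against 1.35 (1.17 to 1.55) for the CTLA-4-titled library. T cells with under 1% macrophage marker UMIs gave 102, 172, 90.7 and 139 CPM in the same order, and 92.3, 95.1, 73.8 and 131 CPM without the top cell of each library. The ratio of the combination to isotype there was 1.37 (1.15 to 1.63) with and 1.42 (1.18 to 1.70) without those cells, and that of the CTLA-4-titled library 1.69 (1.45 to 1.98) with and 1.03 (0.864 to 1.23) without them. CD8 T cells had 106, 146, 35.6 and 85.2 CPM, conventional CD4 T cells 86.0, 95.3, 183 and 118 CPM on 66, 91, 47 and 95 UMIs, and regulatory T cells 34.8, 63.5, 31.1 and 11.6 CPM on 55, 21, 39 and 2 UMIs. CD8 T cells of the combination were at 0.806 (0.677 to 0.963) times isotype, where 1 isotype cell held 48 of the 197 UMIs, and at 0.951 (0.783 to 1.16) without the top cell of each library. The same step took the CTLA-4-titled library from 1.39 (1.18 to 1.64) to 0.702 (0.569 to 0.870) times isotype in CD8 T cells.

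NK cells and ILC1 had 179, 163, 86.7 and 139 CPM and a combination level of 0.778 times (95% interval 0.689 to 0.877) isotype. This difference rested on a few cells: a single isotype cell held 153 of the 504 Lta UMIs, and the ratio was 1.02 (0.892 to 1.17) without the top cell of each library and 1.16 (0.984 to 1.37) without the 1% of cells with most Lta UMIs. Among cells with under 1% macrophage marker UMIs it was 0.607 (0.536 to 0.687). The share of NK cells and ILC1 with a Lta UMI at 2000 UMIs was 9.76% (6.79 to 13.7) in isotype and 12.2% (9.31 to 15.9) in the combination. The shares in T cells were 10.3% (7.68 to 13.4) and 14.3% (11.3 to 17.8). In the fibroblast or tumor cell cluster, 0, 2, 0 and 0 Lta UMIs were counted.

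Myeloid classes held little Lta. Monocytes and macrophages had 2.22, 0.822, 0.755 and 2.64 CPM, and those without a UMI of the T and NK cell markers Cd3d, Cd3e, Cd3g, Trac, Trbc1, Trbc2, Ncr1, Klre1 or Klrb1c had 0.572, 0.386, 0.595 and 0.657 CPM. Neutrophils had 0, 2, 0 and 29 Lta UMIs, and of the 29 in the combination library 21 were in the 43 neutrophils with such a marker UMI. Dendritic cells had 3.36, 14.7, 0 and 12.5 CPM on 9, 26, 0 and 22 UMIs.

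Ltb followed the lymphocytes more widely than Lta. T cells had 502, 729, 466 and 469.6 CPM, and in those with under 1% macrophage marker UMIs the level was 1003, 909, 903 and 879 CPM. In these cells the 3 treated libraries were below isotype, at 0.907 (0.859 to 0.957), 0.900 (0.836 to 0.970) and 0.876 (0.825 to 0.930) times. Over all T cells the CTLA-4-titled library was instead above isotype, at 1.45 (1.39 to 1.52) times, and had the lowest macrophage marker sum. How far macrophage messages in T cell barcodes set that order was not tested beyond these values. The share of T cells with an Ltb UMI at 2000 UMIs was 69.1, 70.6, 65.8 and 67.1%, which differed little between libraries.

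By subset, conventional CD4 T cells had 669.6, 820.4, 554 and 774 CPM, CD8 T cells 446, 668, 402 and 456 CPM and regulatory T cells 636, 1233, 593 and 399 CPM. The regulatory T cell level in the CTLA-4-titled library was 1.94 (1.72 to 2.18) times isotype on 50 cells, of which 2 had 1% or more macrophage marker UMIs, against 28 of 111 in isotype. The NK and ILC1 cluster led by Gzmc had 612, 836, 709 and 812 CPM and the one led by Gzma 164, 229, 211 and 195 CPM. Over both, the combination was at 1.52 (1.42 to 1.63) times isotype, and at 1.31 (1.21 to 1.41) times among cells with under 1% macrophage marker UMIs. Within the clusters, whose shares of the class differed as given above, the ratio was 1.33 (1.23 to 1.44) and 1.19 (0.997 to 1.43). Over NK cells and ILC1, Ltb thus stood above isotype in the combination, though the interval in the cluster led by Gzma included 1. Over all T cells it did not. By subset, conventional CD4 T cells were above isotype (774 against 669.6 CPM), CD8 T cells near it (456 against 446 CPM) and regulatory T cells below it (399 against 636 CPM). Regulatory T cells were 1.43% of all cells in isotype and 0.139% in the combination. The part of their number in the value over all T cells was not tested.

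In monocytes and macrophages, Ltb was 23.1, 9.93, 4.48 and 22.8 CPM and moved with lymphocyte markers. The summed level of the 9 T and NK cell markers was 159, 68.1, 27.5 and 162 CPM in the same cells, with isotype and combination high and the other two low, as for Ltb. Cells with at least 1 such marker UMI had 71.1, 52.3, 33.9 and 62.1 CPM of Ltb, and cells with none 5.05, 2.90, 1.53 and 3.75 CPM. Neutrophils differed: they had 199, 142, 319 and 237 CPM of Ltb, and 202, 141, 323 and 237 CPM in those without a T or NK marker UMI. The Ltb level of neutrophils was thus as large without the cells that carried lymphocyte markers. Their share with an Ltb UMI at 2000 UMIs was 25.6, 23.1, 26.7 and 28.4%, against 0.109 to 0.738% in the fibroblast or tumor cell cluster. Drawing down lowers the latter more, since those cells were far deeper, and without it the shares were 34.5, 28.3, 34 and 35.9% and 2.78, 8.33, 1 and 3.85%.

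Tnfrsf1a, the gene of TNFR1, was highest in neutrophils (705 to 844 CPM) and in classical (593 to 709.5 CPM) and nonclassical monocytes (587 to 686 CPM). Macrophages had 351, 368, 371 and 406 CPM and dendritic cells 339, 374, 413 and 391 CPM. T cells had 224, 146, 230.2 and 276 CPM, but 117, 109, 153 and 161 CPM when cells with 1% or more macrophage marker UMIs were left out. The combination was 1.13 times (95% interval 1.12 to 1.15) isotype in monocytes and macrophages and 1.09 (0.978 to 1.23) in neutrophils. Over each whole class the receptor thus differed less between isotype and combination than its ligand. In the neutrophil cluster led by G0s2, Tnf was at 1.34 (1.17 to 1.54) and Tnfrsf1a at 1.12 (0.970 to 1.29) times isotype, with overlapping intervals. In that led by Retnlg, Tnf was at 0.577 (0.182 to 1.598), on few UMIs, and Tnfrsf1a at 1.36 (1.07 to 1.71) times. In the NK and ILC1 cluster led by Gzmc, Tnfrsf1a was lower in the combination, at 0.590 (0.479 to 0.727) times isotype, on 176, 138, 151 and 199 UMIs. Over NK cells and ILC1 with under 1% macrophage marker UMIs it was at 0.817 (0.683 to 0.980) times.

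Tnfrsf1b, the gene of TNFR2, was at 1258, 1448, 1102 and 1082 CPM in nonclassical monocytes and at 894, 1245, 733 and 1308 CPM in neutrophils. In neutrophils the CTLA-4-titled and combination libraries were high, as for Tnf, and the combination was 1.46 times (95% interval 1.32 to 1.62) isotype, with 1.16 (1.03 to 1.30) in the cluster led by G0s2 and 1.52 (1.11 to 2.09) in that led by Retnlg. Classical monocytes had 787, 868, 832 and 784 CPM and macrophages 372, 351, 382 and 453 CPM. Macrophages of the combination were at 1.22 (1.201 to 1.23) times isotype, and nonclassical monocytes at 0.860 (0.823 to 0.898) times. Among T cells, regulatory T cells had a higher level than CD8 and conventional CD4 T cells in each library, at 646, 665, 546 and 659 CPM, against 367, 389, 358 and 445 CPM in CD8 and 347, 307, 398 and 339.9 CPM in conventional CD4 T cells. The ranges over the libraries of regulatory and CD8 T cells did not overlap. In T cells with under 1% macrophage marker UMIs the level was 558, 417, 518 and 437 CPM, and the combination was at 0.783 (0.721 to 0.850) times isotype. Among all T cells, not only these, regulatory T cells were 111 of 500 in isotype and 10 of 517 in the combination. The part of their number in this ratio was not tested.

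Ltbr, the gene of the lymphotoxin beta receptor, was a myeloid and stromal message. Classical monocytes had 202, 167, 189 and 175 CPM, nonclassical monocytes 188, 181, 167 and 177 CPM, and macrophages 123, 124, 118 and 129 CPM. The fibroblast or tumor cell cluster had 147, 161, 143 and 151 CPM, and there Tnfrsf1b was only 41.7, 37.5, 33.9 and 38.9 CPM. Ltbr differed little between libraries in monocytes and macrophages, at 1.02 (0.995 to 1.04) times isotype in the combination. T cells had 58.3, 26.0, 58.6 and 75.5 CPM and NK cells and ILC1 40.9, 9.68, 34.5 and 28.0 CPM. The CTLA-4-titled library was lowest in both, as it was for the macrophage marker sum. Without cells at 1% or more macrophage marker UMIs the levels were 18.2, 9.29, 11.5 and 22.1 CPM and 17.5, 5.83, 10.6 and 12.3 CPM.

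The neighboring ligand genes were also looked at in the same cells, over all libraries and at 2000 UMIs per cell. Of T cells with a Tnf UMI, 18.05% also had a Lta UMI, against 9.92% of T cells without. In NK cells and ILC1 these shares were 20.8% and 8.04%. Ltb was found in 76.8% of NK cells and ILC1 with a Lta UMI and in 38.0% of those without, while in T cells it was found in 69.2% of cells with and 68.5% of cells without a Tnf UMI. In monocytes and macrophages, 0.350% of cells with a Tnf UMI had a Lta UMI. These are shares of cells pooled over libraries and carry no test. Over 42 points of 12 classes and libraries with at least 20 cells, the levels of Lta and Ltb had a Pearson correlation of 0.78, those of Tnf and Lta of -0.01, and those of Tnf and Tnfrsf1a of 0.40, on log2(CPM + 1). The points share libraries and depth, so these are descriptions.

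On the same points, the genes most like each member among 7951 genes were as follows. Tnf was closest to Sra1 (r = 0.86), Hbegf (r = 0.83) and Srgn (r = 0.83). Lta was closest to Dkkl1 (r = 0.91), Igflr1 (r = 0.90) and Jak3 (r = 0.89), of which Jak3 encodes the kinase of the common gamma chain receptors. Ltb was closest to Cd82 (r = 0.93), Prkd2 (r = 0.92) and Fam102a (r = 0.91). Tnfrsf1a was closest to Ifi204 (r = 0.96), Bach1 (r = 0.94) and Emilin2 (r = 0.94), and Tnfrsf1b to Gsr (r = 0.87), Mocos (r = 0.84) and Mgst1 (r = 0.84). Ltbr was closest to Tifa (r = 0.94), Pirb (r = 0.94) and Mpeg1 (r = 0.93), of which Mpeg1 and Pirb are macrophage and myeloid genes.

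Of the 63 genes listed around these members, 62 were measured, in lists of adaptors and death domain kinases, ubiquitin editing and feedback, release and decay of Tnf, other ligands and receptors around lymphotoxin, and genes known as induced by TNF or through the lymphotoxin beta receptor. In monocytes and macrophages, 8 of 55 genes with enough UMIs were at least 2-fold higher in the combination than in isotype and 3 lower, beside 2.86% and 2.7% of all genes. All 8 higher genes were on the list of genes known as induced by TNF. The median log2 ratio of that list was 1.07 against -0.11 over all genes tested. The lists were chosen with earlier results of these data known. Counts given for this and the other classes are therefore descriptions and do not test a response to TNF. The largest ratios were those of Il6, the gene of interleukin-6, at 0.724, 1.32, 0.428 and 2.46 CPM, and of Cxcl1, a neutrophil-attracting chemokine, at 3.47, 4.92, 5.07 and 10.5 CPM. These were 3.40 times (2.63 to 4.44) and 3.04 times (2.70 to 3.42) isotype. Btla, a receptor of lymphocytes in the lymphotoxin network (4.92, 1.73, 1.85 and 1.83 CPM), and Rhbdf1, which helps ADAM17 mature (3.35, 3.38, 4.41 and 1.45 CPM), had the smallest ratios, 0.373 times (0.317 to 0.437) and 0.433 times (0.359 to 0.521). Adaptor and feedback lists had no call.

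Neutrophils had 9 of 43 listed genes higher in the combination and 0 lower, beside backgrounds of 4.49% and 5.2%. Among the 9 were 3 adaptor, 2 feedback and 4 TNF-induced genes. The adaptor genes were Traf1, Birc2 and Cflar, which limit cell death at TNFR1, and the feedback genes were Nfkbia and Nfkbie, which encode inhibitors of NF-kB. These 5 were named after their values were seen. Their ratios lay between 2.26 (Nfkbie) and 2.60 (Birc2), with 6 Birc2 UMIs in isotype. Icam1, an adhesion molecule, was 135, 839.9, 442 and 950.3 CPM and Cxcl10, a chemokine for activated T cells, 195, 925, 1031 and 1062 CPM. Both were high in all 3 treated libraries, and the combination was 7.05 times (5.51 to 9.17) and 5.45 times (4.43 to 6.78) isotype. The isotype values rest on 65 and 94 UMIs. The neutrophil clusters led by G0s2 and by Retnlg differed in share of the class between isotype and combination, as given above. The listed genes were not compared within these clusters, so the part of this difference in the calls was not tested. Dendritic cells had 6 of 48 higher and 0 lower, where 2.08% and 2.97% of genes were called, led by the neutrophil chemokine gene Cxcl2 at 9.71, 11.9, 15.6 and 78.3 CPM and Cxcl10 at 100.5, 276, 159 and 527 CPM. Their ratios were 8.07 times (5.28 to 12.8) and 5.25 times (4.58 to 6.04). That of Cxcl2 rests on 26 UMIs in isotype and 138 in the combination. These calls were not repeated without the dendritic cells high in macrophage marker UMIs, a step that lowered their Tnf ratio as given above. The cluster led by Cd209a had 206 cells in isotype and 91 in the combination, and that led by Ccl22 37 and 35. The part of macrophage messages or of these cluster sizes in the calls was not tested.

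In T cells, 6 of 51 listed genes were higher in the combination and 0 lower, beside 1.86% and 1.49% of all genes, and all were on the list of TNF-induced genes. Without cells at 1% or more macrophage marker UMIs 4 of 50 were called higher and 0 lower, beside 1.72% and 1.21% of genes. Ptgs2, the gene of cyclooxygenase-2, at 11.1, 7.89, 13.4 and 67.0 CPM, and Csf1, a macrophage growth factor, at 20.2, 50.3, 24.9 and 57.9 CPM, had the largest ratios over all T cells. These were 6.04 times (4.76 to 7.77) and 2.87 times (2.37 to 3.49), and in the cells under 1% they were 6.55 times (3.95 to 11.5) and 2.79 times (2.16 to 3.64). NK cells and ILC1 had 0 of 48 higher and 3 lower, beside 1.15% and 2.46%. Il1b, the gene of interleukin-1 beta, was 149, 8.13, 60.8 and 62.4 CPM and Ccl2, a monocyte chemokine, 71.8, 15.5, 46.8 and 30.6 CPM, at 0.419 times (0.358 to 0.490) and 0.427 times (0.340 to 0.535) isotype. Both are known as messages of myeloid cells. In these NK cells and ILC1 the macrophage marker sum was 8163 CPM in isotype and 5287 CPM in the combination. How far macrophage messages set these ratios was not tested. Without cells at 1% or more macrophage marker UMIs, 1 of 46 genes were higher and 5 lower, beside 1.9% and 1.17%.

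For the single-antibody libraries, the TNF-induced list of monocytes and macrophages gave 1 gene higher and 1 lower in the CTLA-4-titled library than in isotype, of 13 tested, where 0.6% and 2.26% of all genes were called. The FcgRII-titled library gave 0 higher and 1 lower of 12, with 0.448% and 3.82% of all genes called. The median log2 ratios of the list were 0.46 and -0.25, against medians of -0.06 and -0.03 over all genes. The comparisons share the isotype library.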

How the data were processed

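Single cells of pooled MC38 tumors were profiled with probe-based 10x libraries. The authors deposited raw UMI counts per gene and cell, made with Cell Ranger on the mm10 genome, and its version is 7.0.0 in the submitters' processing notes and 7.2.0 in the matrix headers. Cells with under 500 detected genes (67 cells) or over 10% mitochondrial UMIs (48 cells) and the 5% with the highest Scrublet score in each library were left out, since the automatic threshold of Scrublet (scanpy 1.11.5) marked only 1, 3, 1 and 2 cells. Libraries were normalized with sctransform 0.4.2, integrated in Seurat 5.3.0 (R 4.3.3) with 3000 features and 30 principal components, and clustered at resolution 0.8. Clusters were named from lists of markers. UMIs were summed by class and library and given as CPM, with exact Poisson, conditional binomial (ratios) and Clopper-Pearson (shares) 95% intervals from scipy 1.17.1. The tumors of a group were pooled into 1 library, so no count model was fitted.

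A gene was called at a fold of 2 or more with at least 50 UMIs over both libraries. Named pathway genes were the 2 called ones of largest and the 2 of smallest ratio in each class, and genes like a member the 3 with the highest Pearson correlation. The members and lists were chosen with earlier results of these data known. The calling step was tested on simulated data. No column of other samples was in the files. The treatment of the single-antibody libraries could not be settled.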

Additional observations from a re-analysis of the deposited data

Results flagged for a closer look

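Lta and Ltbr differed between the combination and isotype libraries in opposite directions in different classes. The Lta ratio was 1.45 in T cells and 3.72 in dendritic cells, but 0.778 in NK cells and ILC1. The Lta value in NK cells and ILC1 became 1.02 (0.892 to 1.17) without the cell with most Lta UMIs in each library. The Ltbr ratio was 1.29 in T cells and 0.686 in NK cells and ILC1. With 1 library for each group, the difference between the classes was not tested. The dendritic cell value of Lta rests on 22 UMIs in the combination and 9 in isotype. Among cells with under 1% macrophage marker UMIs, Ltbr gave 1.21 (0.791 to 1.88) in T cells and 0.699 (0.431 to 1.14) in NK cells and ILC1, where both intervals included 1.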

How the results depend on the processing

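No paired analysis was possible because each group was 1 library, and for the same reason no replicate could be left out. Of 421 alternative values of ratios of levels, 338 lay within the interval of the reported value, 77 outside it in the same direction, and 6 in the other direction. Of 240 alternative levels, 185 lay within the interval and 55 outside it. Shares of cells depended most on the setting: of 360 alternatives, at other depths or for at least 2 UMIs, 44 lay within the interval and 316 outside it. The ratio of Tnf in the combination to isotype in T cells was 2.24 without integration, 2.43 without cells at 1% or more macrophage marker UMIs, and 3.17 with classes from marker UMIs. That last setting gave 1.43 in monocytes and macrophages, 6.30 in dendritic cells and 4.18 in neutrophils, and for Lta 0.561 in NK cells and ILC1. Size factors gave 1.6 for Tnf in monocytes and macrophages. In dendritic cells Tnf was at 1.41 with 10% of cells left out as doublets, 1.38 as a mean over cells, and 1.14 without cells at 1% or more macrophage marker UMIs. In neutrophils it was 2.65 with stricter filters, 1.39 as a mean over cells, and 2.40 without the 1% of cells with most Tnf UMIs, a setting that gave 1.17 in NK cells and ILC1. Lta in T cells was at 1.77 without integration and 1.70 as a mean over cells. In NK cells and ILC1 it was 0.607 without cells at 1% or more macrophage marker UMIs, 0.918 as a mean over cells, and, in the other direction, 1.16 without the 1% of cells with most Lta UMIs and 1.02 without the top cell of each library. Classes from marker UMIs also turned Lta in monocytes and macrophages to 0.798, Ltbr in NK cells and ILC1 to 1.12, and Tnf in neutrophils of the FcgRII-titled library to 1.65 times isotype, which stricter filters put at 1.07. The share of combination neutrophils with Tnf was 44.4% at 1000 UMIs, 63.9% without drawing down, and 40.2% for at least 2 UMIs, where isotype had 21.1%. Without the mixed and non-immune clusters, monocytes and macrophages held 87.3% of Tnf UMIs in isotype and 78.7% in the combination. At a fold of 1.5, 10 pathway genes were higher in T cells, 15 in monocytes and macrophages and 18 in neutrophils. The cause of these moves was not tested. Leaving out cells by macrophage markers outside the lymphoid classes, by lymphocyte markers, or by most UMIs of a gene, the top cell of each library included, was chosen after seeing the data.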

Other observations

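Small classes also held these messages. The mast cell cluster led by Mcpt2 and Tpsb2, genes of mast cell proteases, had 128, 83.4, 101 and 221 CPM of Tnf on 46, 17, 24 and 64 UMIs in 32, 15, 20 and 23 cells, with the combination highest. B cells numbered 23, 12, 10 and 7 and had 585, 814, 662 and 1031 CPM of Ltb on 55, 34, 40 and 28 UMIs. Migratory dendritic cells, led by Ccl22 and Ccr7, had 467, 520.2, 480.5 and 345 CPM of Tnfrsf1b and 119, 87.6, 120.1 and 137 CPM of Tnfrsf1a, while the dendritic cells with Cd209a had 230.2, 178, 187 and 274 and 375, 407, 452 and 464 CPM. Ltb in migratory dendritic cells was 2.64, 5.48, 28.3 and 73.6 CPM on 1, 1, 4 and 29 UMIs.

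The barcodes of the mixed cluster held macrophage markers with those of T cells or, in part, of NK cells. This cluster had 103, 159, 139.5 and 198 CPM of Tnf, 16.2, 32.7, 14.7 and 38.3 CPM of Lta and 190.2, 233, 186 and 200.5 CPM of Ltb. Its Tnf level was highest in the combination library, at 1.92 (1.84 to 2.00) times isotype. Whether these barcodes were joined cells was not tested.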
